A study of Mus musculus with 8 samples.

Results

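The mitochondrial genome of the mouse was read out here through the 37 rows of the expression table that lie on chromosome MT, out of 52636 rows in all. The rows were chosen by chromosome alone and carry symbols that start with mt-. They are 2 ribosomal RNAs, 22 transfer RNAs and 13 mRNAs, and reads fell on 29 of them in at least 1 library. The libraries were made from satellite cells (SCs), which are the muscle's stem cells, of male C57B/6J mice that were 10 weeks old at the start. In 4 libraries the mice were sedentary (control, labelled untrained), and in 4 they had run on a treadmill at 12 m/min on a 5 degree incline, on 4 days of each of 4 weeks and for 30 min at a time (exercise, labelled trained). About 800 sorted SCs (CD45-, CD11b-, CD31-, Sca1-, CD34+ and α7-integrin+) went into each library, no transgene or drug is named for these libraries, and the molecule is given as poly(A) RNA. The study counts its sequenced replicates as mice, while the labels tie no library to a mouse, and p-values measure the spread between these libraries.

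The mitochondrial genome is a small circle that is transcribed from both strands into long precursors, which are then cut at the tRNAs that punctuate them. Its mRNAs encode core subunits of complex I, complex III, complex IV and the ATP synthase (complex V), while all other subunits, including the whole of complex II, are encoded in the nucleus and imported. Its rRNAs build the mitochondrial ribosome, and its tRNAs supply the amino acids for these few proteins. Quiescent SCs are known for a low mitochondrial content, which rises when they are activated.

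On GRCm38 the annotated members ran from base 1 to base 15422 of chromosome MT, with 28 on the plus strand and 9 on the minus strand. mt-Nd6 was the only mRNA on the minus strand. The genes are single exons packed end to end, and a few share bases. The window around the junction of mt-Atp8 and mt-Atp6 (GRCm38 chrMT:7912-7984, plus strand, 43 shared bases) and that around the junction of mt-Nd4l and mt-Nd4 (GRCm38 chrMT:10152-10188, plus strand, 7 shared bases) are shown because reads across them cannot be given to a single gene. The capitals mark the bases annotated in both genes, and the sequences are those of the GENCODE transcripts.
mt-Atp8 and mt-Atp6: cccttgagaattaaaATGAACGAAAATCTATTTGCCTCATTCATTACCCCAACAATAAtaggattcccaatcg
mt-Nd4l and mt-Nd4: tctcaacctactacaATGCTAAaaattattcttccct
The ends of mt-Nd5 and mt-Nd6, which lie on opposite strands, overlap by 14 bases. The strand setting and overlap mode of the counting were not given in the sources used here, so these 6 genes hold some uncertainty at their edges. Some other neighbours share 1 to 3 bases. The tRNA genes have 59 to 75 bases, shorter than a read of 150 bases, so their counts can also depend on the overlap mode.

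A second source of shared reads lies in the nuclear genome. On chromosome 1 of GRCm38, between bases 24611535 and 24616197, 7 annotated nuclear genes each match a mitochondrial mRNA at 99% or more over at least 200 bases. Gm10925 (mt-Atp6), Gm28661 (mt-Co2), Gm28437 (mt-Co3), Gm28439 (mt-Nd4) and Gm10222 (mt-Nd4l) matched over their whole aligned length. Gm28438 (mt-Nd3) and Gm29216 (mt-Co1) each differed at 1 base, T3C and A1066T, where the mitochondrial base comes first and positions count from 1 at the 5′ end of the mitochondrial gene. The start of mt-Nd3 (GRCm38 chrMT:9459-9491, plus strand) and of its copy (GRCm38 chr1:24613087-24613119, minus strand) are shown to make clear how little separates them, with the differing base in capitals.
mt-Nd3: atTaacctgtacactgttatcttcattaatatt
Gm28438: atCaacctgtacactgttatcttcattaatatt
Over all libraries the copy took 64.2% of the reads of the mt-Nd3 pair, 52.1% of the mt-Atp6 pair, 41.0% of the mt-Co3 pair and 37.2% of the mt-Co2 pair. The share was 20.6% for mt-Nd4l, 4.02% for mt-Co1 and 1.65% for mt-Nd4. The levels of mt-Nd3, mt-Atp6, mt-Co3, mt-Co2 and mt-Nd4l are therefore uncertain by the reads counted on the copy. The share of the mt-Atp6 pair on its copy stayed between 46.1% and 54.2% in the 8 libraries, whereas that of the mt-Co2 pair ranged from 32.0% to 59.0%, and that of the mt-Nd4l pair from 0% in control 1 to 38.7% in control 4 among the 6 libraries with reads. The remaining mRNAs (mt-Nd1, mt-Nd2, mt-Nd5, mt-Nd6, mt-Cytb and mt-Atp8) and both rRNAs had no such copy among the annotated transcripts.

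Facts of the libraries bear on every value below. Depth was 1011737 to 3013354 reads on genes, recovered from the deposited FPKM values (reads per length of gene and per library size), and the library size in these values was a size factor and not the read total. For exercise 4 this size factor was 0.167, so that a read per kb of gene was worth 3.47 FPKM there and 0.251 to 0.902 FPKM in the other libraries. Exercise 1 and 2 were nearly alike (chi-square per degree of freedom 2.71 over mitochondrial genes, against 5.03 for exercise 3 with 4 and 18.0 to 248 for the other pairs within a group). Control 4 came close to a weighted sum of control 1 (0.281) and control 3 (0.715), and exercise 3 to one of exercise 1 (0.299) and exercise 4 (0.677). For single rRNAs and mRNAs the match was looser in control 4, at 0.645 to 2.25 times the weighted sum (median 0.991). In exercise 3 it was 0.832 to 1.15 times (median 1.02). The 4 libraries of a group may therefore not be separate samples, and p-values may be too small. Of 10 SC markers, Pax7, Itga7, Calcr and Cdh15 had no read in any library, whereas Cd34 (2 to 112 reads) and Sdc4 (19 to 324 reads) were read in all 8. Chodl had 49 to 145 reads in the control libraries and 0 in exercise, and Myf5, Myod1 and Vcam1 had reads in some control libraries only. A list of 11 myofibre markers such as Acta1 and Myh4 took 8.23% to 13.1% of control reads and 3.35% to 5.61% of exercise reads. In bulk libraries such as these, fewer mitochondria-rich cells and less mitochondrial RNA per cell cannot be told apart.

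Mitochondrial transcripts made up 2.09%, 11.2%, 15.3% and 11.9% of the reads of control 1 to 4. In exercise 1 to 4 the share was 7.85%, 7.56%, 50.2% and 68.7%. Exercise 3 and 4 were above all other libraries, exercise 1 and 2 were below 3 of the 4 control libraries, and the groups overlapped. The group means were 10.1% ± 5.65 in control and 33.6% ± 30.8 in exercise (SD, n = 4). By counting error alone the shares were precise. The 95% exact binomial interval was 2.08% to 2.11% in control 1 and 68.6% to 68.8% in exercise 4, so the spread lay between libraries. Amplified reads are not independent molecules, and such intervals cover counting error only. Without exercise 4 the difference of the means fell from 23.5 to 11.8 percentage points. The weighted sums above put the mitochondrial share at 11.5% for control 4 and at 48.8% for exercise 3, close to the observed values. Markers of other cells moved as well. The share of myofibre markers among all reads was lower in every exercise library. All shares have the same total, so a high mitochondrial share lowers the others. The summed FPKM of the myofibre markers was 32912 to 67620 in control, and 19592, 20864, 20774 and 59682 in exercise 1 to 4. The 5 fibro-adipogenic markers took 1.11% to 1.29% of control reads and 1.86%, 1.82%, 0.724% and 0.269% in exercise 1 to 4, an order opposite to that of the mitochondrial share between the exercise pairs. The 4 endothelial markers took up to 3.11% of control reads and at most 0.0197% of exercise reads. In control nearly all of these were on Kdr, while Pecam1 and Cdh5 had no read. Kdr had 0 reads in control 1, where the share was 4.27e-05%, below every exercise library. Tek went the other way, with 1, 0, 0 and 0 reads in control and 189, 194, 77 and 6 in exercise. The 3 tenocyte markers took 0.0843% to 0.133% in control and 0.00355% to 0.285% in exercise, and the 3 smooth muscle markers at most 0.00999% and 0.0749%. The 5 leukocyte markers had no read. The part of these cells in the mitochondrial values was not tested.

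**Figure D1:**
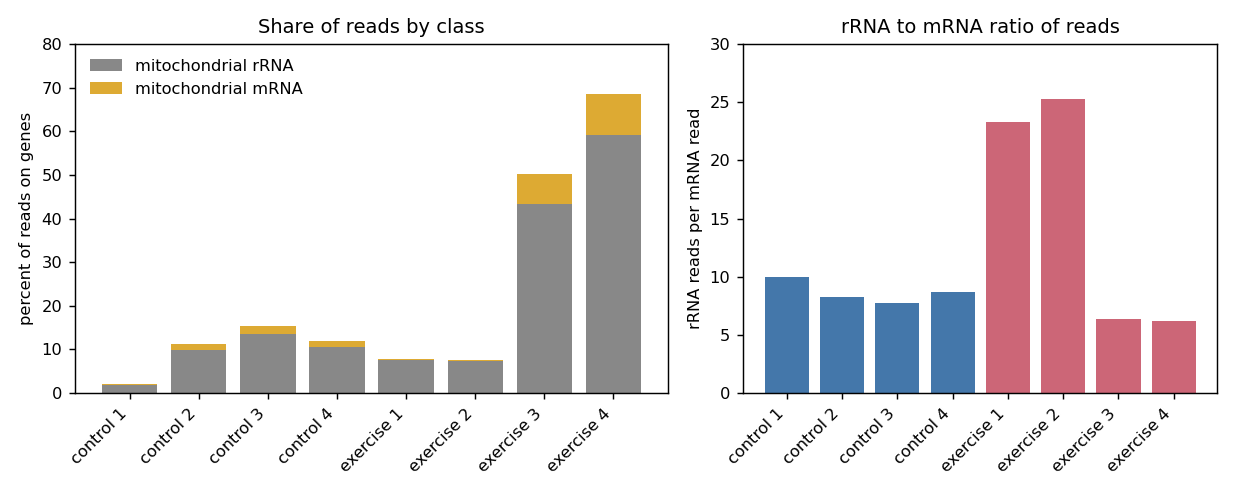
Left, the percent of each library's reads on genes that fell on mitochondrial rRNAs (grey) and mRNAs (yellow), and right, the number of rRNA reads per mRNA read in control (blue) and exercise (red) libraries. Exercise 3 and 4 reach 50.2% and 68.7% in total, while exercise 1 and 2 have the highest ratios, 23.3 and 25.3.

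By class, the rRNAs held most of the mitochondrial reads in every library, from 86.2% in exercise 4 to 96.2% in exercise 2. The mRNAs took 0.19%, 1.21%, 1.75% and 1.23% of all reads in control 1 to 4, and 0.323%, 0.287%, 6.79% and 9.48% in exercise 1 to 4. The tRNAs took at most 0.0162% of reads, in exercise 4. There were 7.76 to 10.01 rRNA reads per mRNA read in the control libraries. The ratio was 23.3 and 25.3 in exercise 1 and 2, and 6.39 and 6.24 in exercise 3 and 4, so the exercise libraries lay on both sides of the control range. The mean ratio was 8.66 ± 0.968 in control and 15.3 ± 10.4 in exercise (SD, n = 4). The difference of 6.65 was 3.98 without exercise 1, 3.32 without exercise 2 and 9.67 without exercise 4.

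mt-Rnr2, the rRNA of the large ribosomal subunit (bases 1094 to 2675), was the highest mitochondrial row in every library. It had 44253, 263714, 407570 and 296629 reads in control 1 to 4, and 79304, 73252, 518025 and 679608 in exercise 1 to 4. On the deposited scale these were 12195, 54436, 66003 and 47057 FPKM in control and 29980, 29020, 295335 and 1490640 FPKM in exercise. Exercise 3 and 4 were above every control library and exercise 1 and 2 were inside the control range. The log2 difference of exercise minus control was 1.88 ± 1.18 (SE; limma, Benjamini-Hochberg adjusted p = 0.201), and it was 0.75 without exercise 4 and -0.27 after quantile normalization.

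mt-Rnr1, the rRNA of the small subunit (bases 70 to 1024), had 290, 1266, 1645 and 1382 reads in control and 397, 315, 3098 and 4199 in exercise. Its log2 difference was 1.99 ± 1.29 (SE, limma adjusted p = 0.217) and 0.78 without exercise 4, again with groups that overlapped. Both rRNAs are cut from the same precursor, and mt-Rnr2 had 153 to 248 reads per mt-Rnr1 read in control libraries and 162 to 233 in exercise libraries. Per length the ratio was 92.1 to 150 in control and 97.7 to 140 in exercise, so this imbalance was shared by both groups. In its most A-rich stretch mt-Rnr2 has 16 A in 20 bases, the highest count of the 37 genes, and mt-Rnr1 has 15. These stretches are shown in capitals, in mt-Rnr2 at GRCm38 chrMT:1468-1527 and in mt-Rnr1 at GRCm38 chrMT:705-764, both on the plus strand, since the RNA is labelled poly(A) and rRNA carries no long poly(A) tail.
mt-Rnr2: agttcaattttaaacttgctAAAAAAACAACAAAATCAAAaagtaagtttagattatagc
mt-Rnr1: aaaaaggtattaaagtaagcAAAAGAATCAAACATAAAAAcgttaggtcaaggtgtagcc
The part of such stretches in the counts was not tested.

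**Figure D2:**
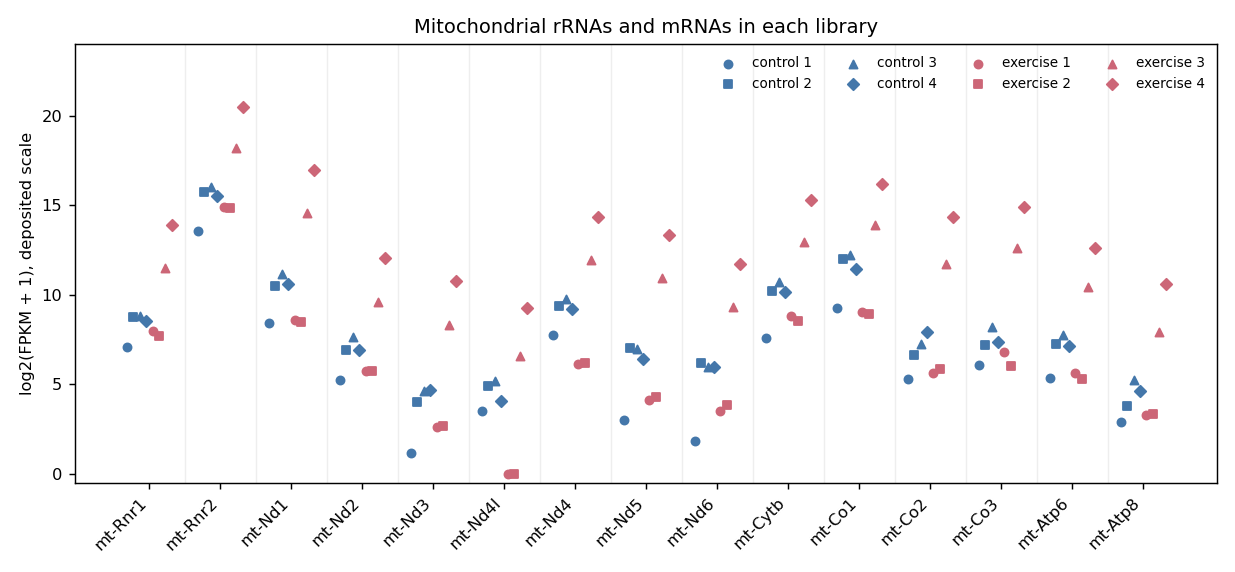
log2(FPKM + 1) on the deposited scale of both rRNAs and the 13 mRNAs, with 1 point per library, control in blue and exercise in red. Exercise 3 and 4 lie above all control libraries for every gene, whereas exercise 1 and 2 lie within or below the control range, and mt-Nd4l is at 0 in both.

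To ask whether training changed the level of any mitochondrial transcript, all 4328 genes whose mean level reached 1 FPKM were compared on log2(FPKM + 1). All 13 mRNAs, both rRNAs and 14 of 22 tRNAs were among them, and the remaining 8 tRNAs had no read. On the deposited scale limma called 0 of the 29 members higher, against 8.78% of all genes tested, and 0 lower, against 26.8%. None of the 29 had an unadjusted p under 0.05, and voom on the recovered reads likewise called 0 in either direction. No member had groups that did not overlap, against 7.62% of all genes higher and 24% lower. The difference was positive for both rRNAs and 12 of 13 mRNAs, with a median of 1.98 over the mRNAs, whereas the median of all genes tested was -1.42. Without exercise 4 the median over the mRNAs was 0.43, with 10 of 13 positive, against -1.46 for all genes, and it was 1.13 without control 1, 1.22 without exercise 3, 3.16 without exercise 1 and 3.15 without exercise 2. With each library's read total in place of the size factor, both rRNAs and 12 of 13 mRNAs were again positive, with a median of 1.52 over the mRNAs against -1.60 for all genes. The signs of the tRNAs are left out of these counts. Of the tRNAs tested, 5 had reads in exercise 3 or 4 alone, and some others reached a mean of 1 FPKM only through these libraries.

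The mRNAs of complex I showed the widest range. mt-Nd1, the first subunit gene after the rRNAs (bases 2751 to 3707), had 344, 1432, 2308 and 1542 FPKM in control and 389, 357, 24090.0 and 127862 FPKM in exercise. Its log2 difference was 1.98 ± 1.78 (SE, limma adjusted p = 0.365) and 0.38 without exercise 4. Exercise 1 and 2 lay near control 1, the lowest control library, and exercise 3 and 4 above all control libraries, and the exact permutation p of the FPKM means was 0.371. Over both rRNAs and the 13 mRNAs this two-sided exact p ranged from 0.371 to 0.429.

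mt-Nd4 (bases 10167 to 11544) had 215, 657, 859 and 593 FPKM in control. In exercise it had 69.4 and 71.9 FPKM in libraries 1 and 2, below every control library, and 3968 and 21094 FPKM in libraries 3 and 4, above every control library. The log2 difference was 0.64 ± 1.72 (SE, limma adjusted p = 0.772), and it turned to -0.93 without exercise 4 and to -0.12 without exercise 3.

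mt-Nd4l (bases 9877 to 10173), which precedes mt-Nd4 on the same transcript, had 7, 26, 41 and 19 reads in control and 0, 0, 31 and 53 in exercise. It was the only mRNA with no read in some library, and the only mRNA whose difference was negative on the deposited scale, at -0.45 ± 1.96 (SE, limma adjusted p = 0.857). That difference was -2.22 without exercise 4, but 0.87 without either exercise 1 or exercise 2 and 0.21 after quantile normalization. A count of 0 allows up to 3 reads by counting error. mt-Nd2, mt-Nd3, mt-Nd5 and mt-Nd6, the other subunits of complex I, had log2 differences of 1.59 to 2.47, with limma adjusted p of 0.275 to 0.361, and of 0.33 to 0.91 without exercise 4. mt-Nd6, the minus-strand gene, had 3, 112, 123 and 126 reads in control and 9, 11, 359 and 501 in exercise, which was 0.0674% to 0.457% of the reads on mitochondrial mRNAs.

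mt-Cytb, the cytochrome b of complex III (bases 14145 to 15288), had 189, 1159, 1687 and 1133 FPKM in control and 449, 368, 7766 and 39473 FPKM in exercise. Its log2 difference was 1.73 ± 1.45 (SE, limma adjusted p = 0.336) and 0.43 without exercise 4. Exercise 1 and 2 were inside the control range.

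Of the complex IV genes, mt-Co1, the catalytic subunit (bases 5328 to 6872), had 605, 4034, 4675 and 2805 FPKM in control and 528, 483, 14991 and 74544 FPKM in exercise. Exercise 1 and 2 were thus below all control libraries. The log2 difference was 0.79 ± 1.55 (SE, limma adjusted p = 0.686) and was -0.60 without exercise 4. mt-Co3 had the largest difference of the mRNAs, 2.87 ± 1.80 (SE, limma adjusted p = 0.201), with 67.3, 145, 291 and 165 FPKM in control and 112, 64.0, 6221 and 30543 FPKM in exercise. mt-Co2, which holds the copper site that accepts electrons from cytochrome c, differed by 2.62 ± 1.82 (SE, limma adjusted p = 0.248). Without exercise 4 the difference was 1.27 for mt-Co3 and 0.96 for mt-Co2, and without exercise 2 that of mt-Co3 was 4.23. The genes of the ATP synthase, mt-Atp6 and mt-Atp8, differed by 1.63 and 2.17 on the log2 scale, with limma adjusted p of 0.397 and 0.267, and by 0.24 and 0.73 without exercise 4. With the reads of the nuclear copies added, no member was called either.

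For both rRNAs and all 13 mRNAs, exercise 3 and 4 were above every control library, whereas exercise 1 and 2 were within or below the control range. When limma weighted each library by how closely it fitted its group in these data, exercise 1 and 2 received weights of 14.4 and 14.0. Exercise 4 received a weight of 0.124 and control 1 one of 0.0606, and the difference turned negative for both rRNAs and 12 of the 13 mRNAs. In that fit 50% of all genes were called lower, and so were 5 of the 29 members: mt-Co1 (-2.83, limma adjusted p = 0.0228), mt-Nd4 (-3.21, limma adjusted p = 0.0257), mt-Nd4l (-4.70, limma adjusted p = 0.00771), mt-Tc (-3.68, limma adjusted p = 0.0414) and mt-Ty (-7.65, limma adjusted p = 0.00067). Exercise 1 and 2 are also the libraries that were nearly alike.

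The tRNAs had few reads. Of the 14 with reads, none had them in all libraries, and 12 had 1 to 27 reads in total. The tRNA genes with a mean of at least 10 reads were mt-Ti and mt-Ty, and their sequences are given because they carry most of the tRNA reads. mt-Ti, for isoleucine, lies at GRCm38 chrMT:3706-3774 on the plus strand, and mt-Ty, for tyrosine, at GRCm38 chrMT:5260-5326 on the minus strand.
mt-Ti: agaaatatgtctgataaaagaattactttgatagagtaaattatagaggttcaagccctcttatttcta
mt-Ty: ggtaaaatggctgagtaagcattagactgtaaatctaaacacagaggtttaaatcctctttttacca
mt-Ti shares its first 2 bases with the end of mt-Nd1. It had 0 reads in all control libraries and in exercise 1 and 2, and 73 and 93 reads in exercise 3 and 4. Its log2 difference was 5.52 ± 2.59 (SE, limma adjusted p = 0.114), a value that depends on the pseudocount. mt-Ty had 0, 112, 72 and 31 reads in control and 0, 0, 9 and 11 in exercise. Its log2 difference was -1.997 ± 2.52 (SE, limma adjusted p = 0.52), and it was the only tRNA with a negative one on the deposited scale. In total 5 tRNAs had reads in exercise 3 or 4 alone, with 1 to 166 reads each, and no tRNA had a read in control 1, exercise 1 or exercise 2.

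The level of the mitochondrial genome as a whole was then set aside by dividing each library by its own mitochondrial reads. On this scale limma called 0 of 29 members higher (0.994% of all genes tested) and 0 lower (20.8%), none had an unadjusted p under 0.05, and voom also called 0. Of the mRNAs 7 were positive and 6 negative, with a median of 0.12 against -2.10 for all genes. No member lay above the control range in every exercise library (2.59% of all genes did). mt-Co1 was the only member below it in every exercise library (29.3% of all genes were), at -1.07 ± 0.826 (SE, limma adjusted p = 0.297). The exact two-sided permutation p of its level was 0.0286, the smallest that 70 assignments can give and not adjusted, and over the other mRNAs and both rRNAs this p ranged from 0.0571 to 0.8286. mt-Rnr2 makes up most of the divisor, so its difference of 0.02 ± 0.571 (SE, limma adjusted p = 0.974) is held near 0 by construction. That of mt-Rnr1 was 0.13 ± 0.861 (SE, limma adjusted p = 0.905). mt-Ty was called lower on this scale when control 1, the control library with no read of it, was left out (-5.99, limma adjusted p = 0.0211), a fit in which 35.8% of all genes were called lower. With array weights it was also called lower on this scale (-5.29, limma adjusted p = 0.0115), as were 43.9% of all genes.

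**Figure D3:**
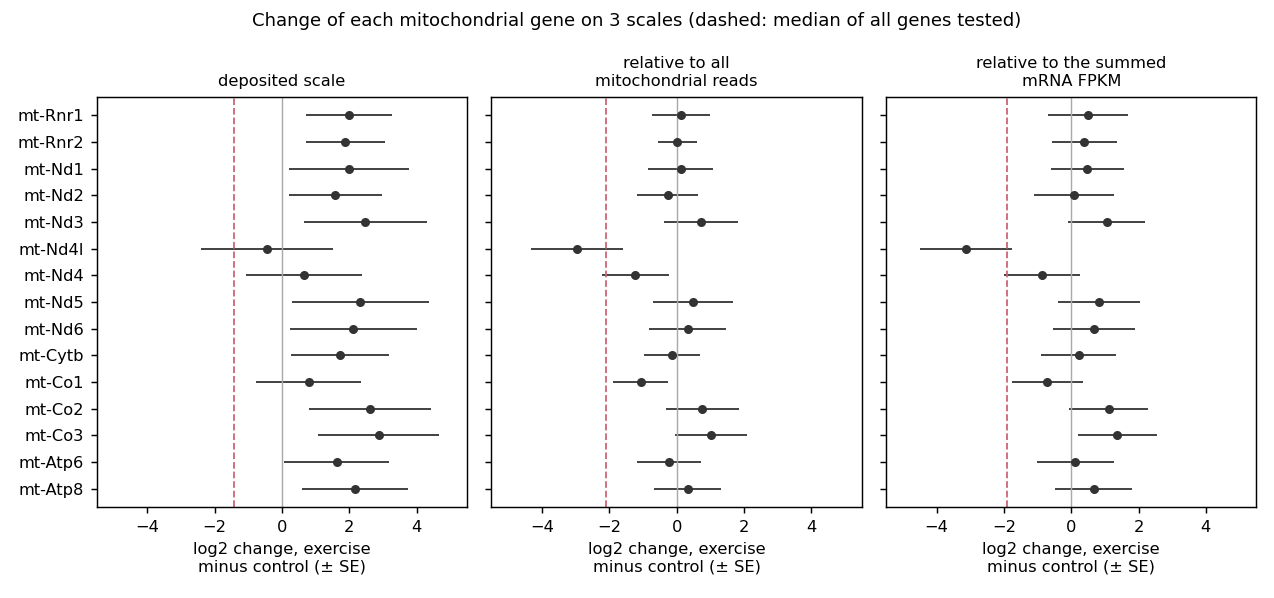
log2 difference of exercise minus control with its SE from limma for both rRNAs and the 13 mRNAs, on the deposited scale, relative to the mitochondrial reads and relative to the summed mRNA FPKM, with the median of all 4328 genes as a dashed line (-1.42, -2.10 and -1.89). None was called, and mt-Nd4l, mt-Nd4 and mt-Co1 lie to the left of the other mRNAs in each panel.

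Within the mRNAs alone, levels per length were compared as each gene's percent of the summed FPKM of the 13. mt-Co1 was the most abundant mRNA in all control libraries, with 38.7%, 50.1%, 43.9% and 40.4%. It had 30.4%, 31.4%, 22.8% and 21.8% in exercise 1 to 4, so that every exercise library was below every control library. The means were 43.3% ± 5.06 and 26.6% ± 5.01 (SD, n = 4).

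mt-Nd1 had 21.99%, 17.8%, 21.7% and 22.2% in control. It had 22.4% and 23.2% in exercise 1 and 2, only just above the control range, and 36.6% and 37.3% in exercise 3 and 4, where it was the most abundant mRNA. There were 0.355 to 0.569 units of mt-Nd1 FPKM per unit of mt-Co1 FPKM in control libraries, 0.737 and 0.739 in exercise 1 and 2, and 1.61 and 1.72 in exercise 3 and 4. That these ratios do not overlap follows from the shares of both genes.

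mt-Nd4 took 13.8%, 8.16%, 8.07% and 8.54% in control and 4.00%, 4.67%, 6.04% and 6.16% in exercise. mt-Nd4l took 0.657%, 0.355%, 0.332% and 0.231% in control and 0%, 0%, 0.143% and 0.181% in exercise. mt-Nd4 was lower in every exercise library. For mt-Nd4l the 3 reads that a count of 0 allows would be 0.346% in exercise 1 and 0.41% in exercise 2, inside the control range, so its separation was not detectable at this depth. mt-Cytb, in contrast, split the exercise libraries, with 12.1% to 16.3% in control, 25.8% and 23.9% in exercise 1 and 2, and 11.8% and 11.5% in exercise 3 and 4. mt-Co3 took 1.80% to 4.30% in control and 6.45%, 4.16%, 9.46% and 8.92% in exercise, which overlapped only through control 1 and exercise 2.

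Counted over the 13 mRNAs, mt-Nd1 was higher in every exercise library (2.33% of all 4328 genes on this scale) and mt-Co1, mt-Nd4 and, with its counts of 0 as they stand, mt-Nd4l were lower (24.6% of all genes). limma on this scale called 0 mRNAs higher (0.185% of all genes) and 0 lower (10.7%), and mt-Nd4l alone had an unadjusted p under 0.05. The log2 differences were -0.71 ± 1.06 for mt-Co1, 0.48 ± 1.08 for mt-Nd1, -0.87 ± 1.13 for mt-Nd4 and -3.13 ± 1.37 for mt-Nd4l (SE, limma adjusted p = 0.612, 0.745, 0.563 and 0.115). This scale was first formed from the reads on the mRNAs and then, with those results known, from their summed FPKM so that it matches the shares above. Divided by mRNA reads, mt-Nd1, mt-Co3 and mt-Atp8 were higher in every exercise library (2.5% of all genes), and mt-Co1, mt-Nd4 and mt-Nd4l were again lower (24.2%). limma on that form also called 0 mRNAs, against 0.162% of all genes higher and 9.13% lower, and none had an unadjusted p under 0.05. The separation of mt-Co3 and mt-Atp8 thus depended on which total was used. limma moderates each SE with the spread of all genes, whose own SE had a median of 1.34 on this scale, against 0.377 for the 13 mRNAs. From the gene's own spread alone the SE was 0.16 for mt-Co1, 0.216 for mt-Nd1, 0.239 for mt-Nd4 and 1.195 for mt-Nd4l, in groups that hold nearly alike libraries. A scale made of 13 genes also ties them together, since a lower share of mt-Co1 raises the share of the others.

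**Figure D4:**
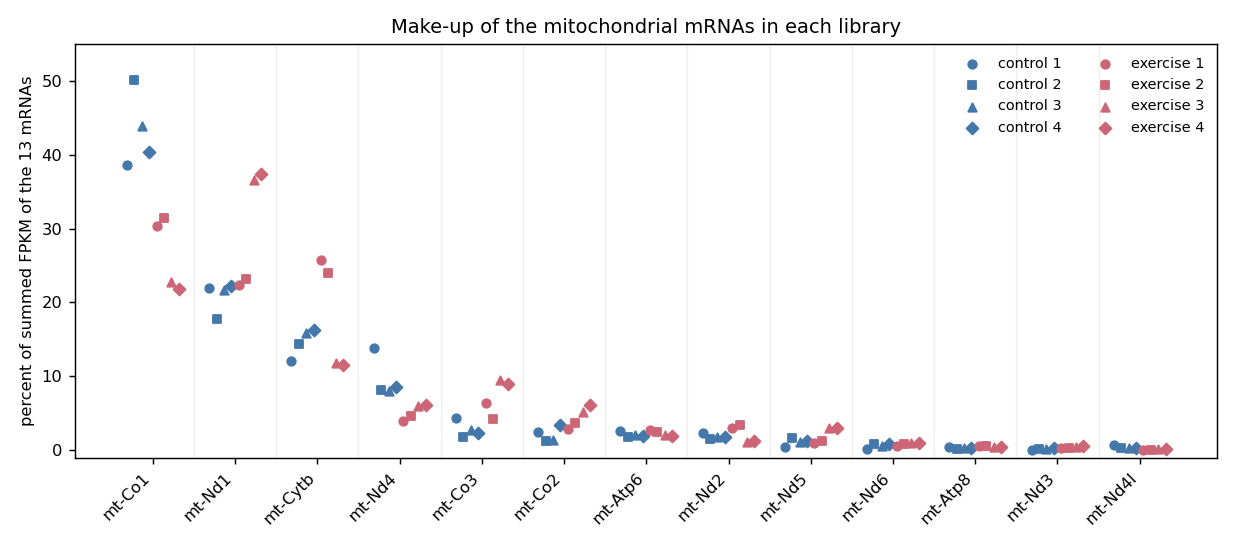
Each mRNA's percent of the summed FPKM of the 13 mitochondrial mRNAs, with 1 point per library, control in blue and exercise in red. The red points of mt-Co1 and mt-Nd4 lie below all blue points and those of mt-Nd1 above them, while mt-Cytb separates exercise 1 and 2 (25.8% and 23.9%) from all other libraries.

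By complex, the 7 complex I genes together took 30.5% to 39.5% of the summed mRNA FPKM in control, 31.2% and 33.7% in exercise 1 and 2, and 48.4% and 49.4% in exercise 3 and 4. The 3 complex IV genes took 45.4% to 53.1% in control and 36.8% to 39.7% in exercise, with no overlap between groups. Most of this sum was mt-Co1. mt-Co2 took 1.21% to 3.42% in control and 2.82% to 6.06% in exercise. mt-Co3 took 1.80% to 4.30% and 4.16% to 9.46%, so both went the other way, with groups that overlapped. The ATP synthase genes stayed at about 2% to 3.29% in all libraries.

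The nuclear genes whose products join these proteins were compared on the deposited scale for context. Of 82 nuclear subunits of oxidative phosphorylation listed, 78 were tested, and limma called 1 higher and 36 lower (8.78% of all genes were called higher and 26.8% lower), with a median log2 difference of -2.28 against -1.42 for all genes and 1.98 for the 13 mitochondrial mRNAs. Of the 36, 12 had a mean under 1 FPKM in exercise and entered the test through the control libraries. The count of 36 became 16 to 22 when control 3, control 4, exercise 1, exercise 2 or exercise 3 was left out. It was 0 when exercise 1 and 2 were averaged and control 4 and exercise 3 left out, which compares 3 control with 2 exercise values. For complex I, 1 of 34 rose and 17 fell. Ndufa8 fell by 8.53 on the log2 scale (limma adjusted p = 0.000725), with 47.4 to 1580 FPKM in control and 0 in every exercise library. For complex II 3 of 4 fell, among them Sdha (-3.20, limma adjusted p = 0.0119), whose mean was 0.259 FPKM in exercise.

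For complex III 5 of 9 fell, led by the Rieske protein gene Uqcrfs1 (-7.75, limma adjusted p = 0.000409), which had 120 to 541 FPKM in control and 0 in exercise. Like Ndufa8 and Sdha, it entered the test through the control libraries alone, so the values of these genes are a description. For complex IV 5 of 13 fell, among them Ndufa4 (-8.10, limma adjusted p = 0.000446), and for the ATP synthase 6 of 18, among them Atp5j (-4.61, limma adjusted p = 0.00259). With 26.8% of all genes called lower, the counts of single complexes are given as a description. The log2 values of genes at 0 in exercise depend on the pseudocount.

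Per complex, the summed mitochondrial FPKM was set against the summed nuclear FPKM of the same library, a ratio free of the library scale. For complex III it was 0.0322, 0.198, 0.429 and 0.309 in control and 5.57, 4.67, 4.48 and 4.32 in exercise, higher in every exercise library. The listed nuclear subunits of complex III took 0.587% to 0.768% of reads in control and 0.018%, 0.0201%, 0.196% and 0.28% in exercise. For complex IV the ratio was 0.0522 to 0.505 in control, 0.0537 and 0.047 in exercise 1 and 2, and 3.52 and 36.4 in exercise 3 and 4. For complex I the control libraries had 0.105 to 0.543, exercise 1 and 2 had 0.318 and 0.286, and exercise 3 and 4 had 2.095 and 2.32. Only for complex III did the groups not overlap.

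**Figure D5:**
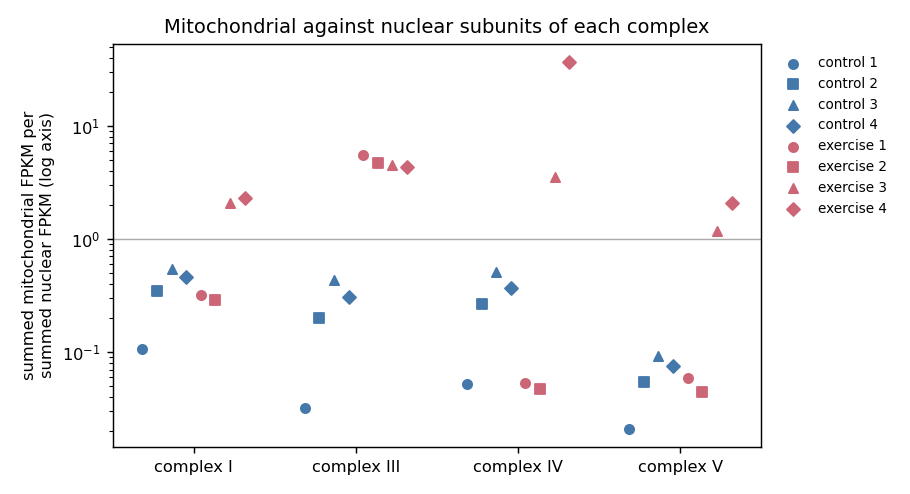
Summed FPKM of the mitochondrial subunits per summed FPKM of the listed nuclear subunits of the same complex, on a log axis, with 1 point per library, control in blue and exercise in red. All exercise libraries exceed all control libraries for complex III (4.32 to 5.57 against 0.0322 to 0.429), whereas exercise 1 and 2 lie within or just below the control range for complexes I, IV and V.

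Of 69 listed nuclear genes that maintain and transcribe the mitochondrial genome, process its RNA, charge its tRNAs or regulate it, 15 reached a mean of 1 FPKM. Mitochondrial ribosomal proteins and translation factors were not listed. Of these, 2 were called higher and 8 lower, against 8.78% and 26.8% of all genes, with a median of -2.19 against -1.42. Both of the higher genes had a mean under 1 FPKM in control, and 7 of the 8 lower ones a mean under 1 FPKM in exercise. They entered the test through the group where they were high, so the counts and the values that follow are a description. Tfb2m, the transcription factor that opens the mitochondrial promoters, had 3.84 to 15.9 FPKM in control and 0 in every exercise library (-2.79, limma adjusted p = 0.0097). Fastk, a gene of mitochondrial RNA stability, fell by 3.89 (limma adjusted p = 0.0235). Gars, the glycyl-tRNA synthetase, fell by 2.88 (limma adjusted p = 0.0122). Grsf1, an RNA-binding protein of mitochondrial RNA granules, fell by 2.98 (limma adjusted p = 0.0304), and Esrra, a nuclear receptor that drives mitochondrial genes, by 4.11 (limma adjusted p = 0.0278). Twnk, the mitochondrial DNA helicase and the only tested gene of mitochondrial DNA maintenance, was not called (1.495, limma adjusted p = 0.318). With a single library left out, at most 1 was called higher except without exercise 4, and 1 to 5 were called lower except without control 1. The counts were 0 higher and 0 lower when exercise 1 and 2 were averaged and control 4 and exercise 3 left out.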

How the data were processed

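Per the labels and the study's methods, SC libraries made with a single-cell RNA kit were sequenced on an Illumina platform as paired 150-base reads, and the authors aligned them with Bowtie 0.12.9 (build mm10), computed FPKM with Cufflinks 2.1.1 and counted reads with HTSeq. The authors deposited FPKM per gene. Multiplied by gene length, the values were whole multiples of a step per library (100% within a tolerance of 0.001), which gave back the reads. The library size in the deposited FPKM was the geometric mean of the 8 read totals times a size factor by median of ratios.

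Rows that share a symbol were summed (101 rows fewer). The 4328 genes that reached an average of 1 FPKM went into limma 3.58.1 (R 4.3.3) as log2(FPKM + 1), with a trend and Benjamini-Hochberg adjustment, and were called under 0.05. Such log2 differences understate changes of low genes. The fit was tested on simulated data. Single FPKM values had exact two-sided permutation tests over 70 assignments (smallest p 0.0286). Levels within a library were divided by its mitochondrial reads or by its summed mRNA FPKM, the latter added after seeing the data and changed from mRNA reads to FPKM with results known. Shares of reads have 95% exact binomial intervals. Nuclear copies were found with blastn 2.17.0 among GENCODE M21 transcripts of GRCm38, whose mitochondrial coordinates equal those of the table. Depth was 1011737 to 3013354 reads per library.

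Named were all mRNAs and rRNAs, tRNAs with a mean of at least 10 reads, and at most 4 members with the smallest p per nuclear group (here the first of each, and Grsf1); mt-Tc was named after its value was seen. The others within that limit are not reported here. The members are defined by chromosome alone, but this set and the lists were taken up with earlier results of these data known. Replicate numbers did not pair the libraries. Alternatives are in the closing section.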

Additional observations from a re-analysis of the deposited data

Results flagged for a closer look

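Of 66 sets of 4 libraries examined for a library far from the other 3 of its group (Dixon's ratio above its 95% critical value), 5 were found, where chance gives about 1 in 20, or 3.3. In 4 of them control 1 stood apart: its log2(FPKM + 1) was 7.06 for mt-Rnr1 (8.51 to 8.79 in the other control libraries), 3.03 for mt-Nd5 (6.40 to 7.01) and 1.82 for mt-Nd6 (5.95 to 6.16), and its mt-Nd4 share of the mitochondrial mRNA FPKM was 13.8% (8.07% to 8.54%). In the other, mt-Nd1 took 17.8% of the mitochondrial mRNA FPKM in control 2, against 21.7% to 22.2% in the other control libraries. No cause was tested.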

How the results depend on the processing

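Limits: groups of 4 libraries, some of them nearly alike, and amplified reads set the precision, and mt-Nd4l, mt-Atp8, mt-Nd3 and all tRNAs rest on few reads. No member was called on the deposited or within-mitochondrial scale under another pseudocount (0.1), another filter, library-total scaling, quantile normalization, no trend, the highest row per symbol, voom on recovered reads or nuclear copies added (chosen after seeing the data). Array weights called 5 members lower on the deposited and 1 on the within-mitochondrial scale, where 50% and 43.9% of all genes were called lower. They turned the deposited log2 differences to -0.75 (mt-Rnr1), -0.88 (mt-Rnr2), -2.19 (mt-Nd1), -1.50 (mt-Nd2), -2.83 (mt-Co1), -1.31 (mt-Co2), -1.41 (mt-Atp8), -1.90 (mt-Atp6), -1.25 (mt-Co3), -1.65 (mt-Nd3), -3.21 (mt-Nd4), -2.36 (mt-Nd5), -2.05 (mt-Nd6) and -1.68 (mt-Cytb). Quantile normalization gave -0.27 for mt-Rnr2 and 0.21 for mt-Nd4l. With exercise 1 and 2 averaged, mt-Nd4l was 0.87 on the deposited scale, and mt-Rnr2 and mt-Atp6 were -0.0027 and 0.0060 on the within-mitochondrial scale. Dropping control 4 and exercise 3 as well gave 0.12 for mt-Nd4l. With the mitochondrial mRNA total (chosen after seeing the data), mt-Nd2, mt-Atp6 and mt-Cytb were 0.086, 0.12 and 0.23, and with mitochondrial mRNA reads, the first form of that scale, 0.23, 0.26 and 0.37. The cause was not tested.

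Leaving out a library gave 0 to 1 members lower on the within-mitochondrial scale and otherwise 0 called members. It gave 1 to 2 nuclear subunits higher and 16 to 37 lower, 0 to 2 machinery genes higher and 1 to 8 lower, and a mitochondrial share difference of 11.8 to 32.1 percentage points. Signs changed within the deposited ranges of mt-Co1 (-0.60 to 1.82), mt-Nd4 (-0.93 to 1.81) and mt-Nd4l (-2.22 to 0.87). They also changed within the within-mitochondrial ranges of mt-Rnr2 (-0.0037 to 0.050), mt-Nd1 (-0.32 to 0.56), mt-Atp6 (-0.50 to 0.056), mt-Cytb (-0.28 to 0.038), mt-Nd5 (-0.076 to 1.08) and mt-Nd6 (-0.27 to 0.77).

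Nuclear subunits lower were 22 with no filter, 15 with quantile normalization and 19 with exercise 1 and 2 averaged. When the averaged pair was compared without control 4 and exercise 3, 0 were lower and 0 higher. Array weights gave 3 higher. Machinery genes higher and lower were 0 and 4 with no filter, 1 and 4 with the filter of 1 FPKM in 4 libraries, 0 and 3 with exercise 1 and 2 averaged, and 0 and 0 in the comparison that also dropped control 4 and exercise 3. Machinery genes higher were 1 with the filter of 10 reads and 1 with no trend, and machinery genes lower were 0 with quantile normalization.

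With the replicate block, 0 members were called on either scale, 1 nuclear subunit was higher and 29 lower, and 0 machinery genes were higher and 6 lower. Same-numbered libraries correlated by -0.0169 to 0.0393 in their deviations from the group means, all under 0.1, so the numbers were not taken to pair the libraries. The exercise library that correlated best had the same number for control 2, 3 and 4 but not for control 1.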
